A study of Mus musculus with 2 samples.

Results

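A small group of neurons, chosen by Foxb1 and 5 other genes and called Foxb1-type neurons, was examined in single-cell data of the mouse arcuate nucleus and median eminence. A cell barcode was counted as a neuron when it had at least 500 detected genes and at least 3 of the pan-neuronal genes Snap25, Syt1, Stmn2, Meg3 and Snhg11. It was counted as Foxb1-type when it also had at least 2 of 6 gate genes, namely Foxb1, Ctxn3, Cpne9, Nxph4, Rprm and Gpr83. This gave 91 of the 3801 barcodes with 500 or more genes, and 91 of 1545 neurons. Of these, 56 came from the wild-type (WT) library and 35 from the Irx5KO library. The cells were chosen by the detection of these 6 gate genes in the same counts, so the gate genes' levels are given as a description. The place of a cell in the brain was not measured, and the mammillary region is named only from the known expression of these genes.

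The WT library was made from a pool of 7 CD-1 mice and the Irx5KO library from a pool of 6 CD-1 mice of genotype Irx5-/-, all aged 7 to 8 weeks. Irx5 is an Iroquois homeobox transcription factor. Arcuate nucleus and median eminence were dissected together, live cells were sorted, and 3' transcript ends were sequenced by Drop-seq, in which each cell's RNA is caught on a barcoded bead within a droplet and unique molecular identifiers (UMIs) tell the captured molecules apart. Levels are given as CPM, the UMIs of a gene per 1e6 UMIs summed over the cells of a group within a library. With 1 library of pooled animals per genotype there is no replicate, so no difference was tested. All 95% intervals given below cover counting error only, because cells of 1 library are not replicates of a genotype, and genes are counted by the size of a ratio alone.

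The mammillary and premammillary nuclei lie at the back of the hypothalamus, behind the arcuate nucleus. Their neurons are mostly glutamatergic, fill synaptic vesicles through the transporter encoded by Slc17a6 (VGLUT2), and send long axons to the thalamus, midbrain and septum. Foxb1 encodes a forkhead transcription factor needed for the mammillary nuclei to form and persist, and its cells also populate parts of the premammillary hypothalamus. Lhx1, Lhx5, Nkx2-1, Sim1 and Sim2 encode other transcription factors known from the developing mammillary region, and Adcyap1 encodes the neuropeptide PACAP, abundant in mammillary and premammillary neurons.

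The Foxb1-type neurons held 165284 UMIs in WT, with a median of 1993 per cell (616 to 12520), and 134486 UMIs in Irx5KO, with a median of 2935 (794 to 9876). The other neurons had medians of 2251 UMIs in 573 WT cells and 2540 UMIs in 881 Irx5KO cells. The libraries shared 1 barcode sequence among all barcodes and 0 among the Foxb1-type neurons. Irx5 itself had 13 UMIs in the 1829 WT barcodes with 500 or more genes and 0 UMIs in the 1972 Irx5KO barcodes. The Foxb1-type neurons had 0 Irx5 UMIs in both libraries, which allows up to 18.2 CPM in WT and 22.3 in Irx5KO. The sources used here do not say which part of Irx5 was deleted, so a 3' count may not check the deletion.

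Foxb1, which lies at chr9:69757710-69760940 on the minus strand of mm10, had 120 UMIs in 37 of 56 WT Foxb1-type neurons and 100 UMIs in 24 of 35 Irx5KO cells. Its level was 726 CPM in WT and 744 in Irx5KO, against 7.69 and 5.11 in the other neurons. The forkhead gene was thus at nearly the same level in both libraries among the chosen cells, and it was missing from the counts of 19 WT and 11 Irx5KO cells that passed on other gate genes. Ctxn3, encoding a small neuronal membrane protein of the cortexin family, stood at 151 CPM in WT and 238 in Irx5KO, from 15 and 7 cells. Cpne9, encoding a calcium-dependent membrane-binding copine, stood at 532 and 521, from 37 and 20 cells. Nxph4, encoding a secreted neurexophilin that binds neurexins, stood at 194 and 275, from 19 and 18 cells. Rprm, encoding the cell-cycle inhibitor Reprimo, stood at 1240 and 922, from 42 and 23 cells. Gpr83, encoding a G-protein-coupled receptor, stood at 236 and 394, from 24 and 25 cells. None of these 6 genes had a UMI in the 116 Irx5KO oligodendrocyte barcodes outside the neuron gate (median 1708.5 UMIs). In the 197 WT ones (median 1887 UMIs) Rprm had a UMI in 1 and the other gate genes in 0.

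The gate genes occurred together in the same cells, given as a description because these genes chose the Foxb1-type neurons in the same counts. Of all 77 neurons with a Foxb1 UMI, 41 had a Cpne9 UMI (53.2%), against 56 of the 1468 neurons without one (3.81%). Ctxn3 was seen in 20 of these 77 neurons and in 8 of the 1468. Of the 28 neurons with Ctxn3, 20 had Foxb1, the largest such share among the 6 gate genes. Rprm was the least particular of the 6, with Foxb1 in 45 of its 172 neurons. Among neurons, 14 in WT and 8 in Irx5KO had 3 gate genes, 13 and 2 had 4, 2 and 9 had 5, and 4 and 2 had all 6, as the plot of gate genes per neuron shows.

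**Figure D1:**
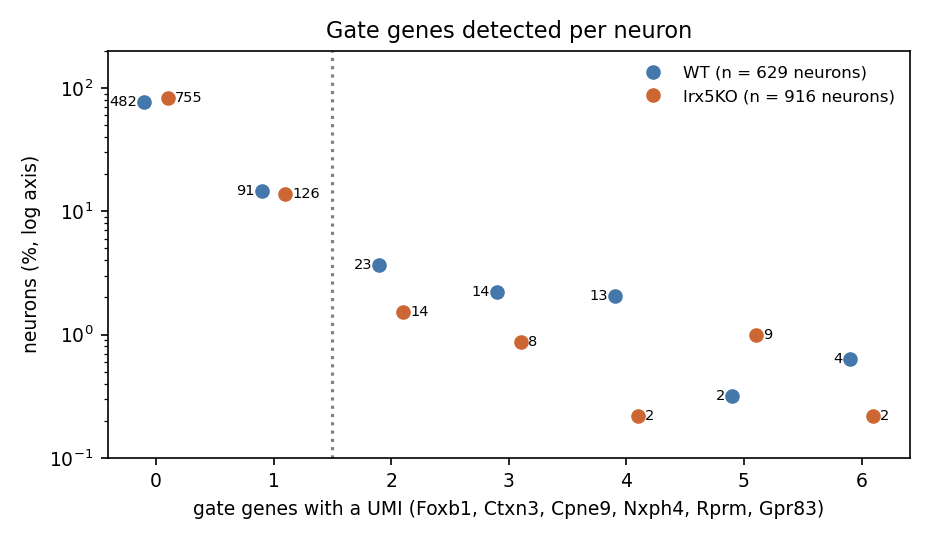
Share of neurons (%, log axis) with each number of gate genes detected, for WT (629 neurons, blue) and Irx5KO (916 neurons, orange). Numbers beside the points are cells, and cells right of the dotted line are the Foxb1-type neurons. Most neurons have 0 gate genes, 482 in WT and 755 in Irx5KO, and 56 WT and 35 Irx5KO neurons have 2 or more.

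Cells just inside and just outside the gate are compared here by genes that the gate did not use. Slc17a6 had a UMI in 15 of 23 WT and 7 of 14 Irx5KO cells with 2 gate genes, and in 26 of 91 and 42 of 126 neurons with 1. Adcyap1 had a UMI in 6 of 23 WT cells with 2 gate genes and in 3 of 91 with 1, but in Irx5KO in 1 of 14 and 10 of 126, nearly the same share. Lhx1 had a UMI in 7 of 23 and 3 of 14 cells with 2 gate genes, and in 9 of 91 and 9 of 126 with 1. Depth did not run in the same order as these counts: the neurons with 1 gate gene had a median of 3935 UMIs, those with 2 had 1854, and those with 3 or more had 2645.5. Below the minimum of 500 genes, searched down to 300, a further 4 WT and 0 Irx5KO barcodes passed the rest of the rule.

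Of the 91 cells, 69 had a UMI of Slc17a6 and 41 a UMI of Adcyap1, genes outside the gate, while 9 had a GABAergic gene (Gad1, Gad2 or Slc32a1) without Slc17a6 and 7 had both. Slc17a6, at chr7:51622006-51671119, had 150 UMIs in 42 of 56 WT cells and 119 UMIs in 27 of 35 Irx5KO cells. That was 908 and 885 CPM, 6.24-fold (5.06 to 7.68) and 6.01-fold (4.87 to 7.37) above the other neurons. Against the 89 WT and 138 Irx5KO other glutamatergic neurons, those with Slc17a6 and none of Gad1, Gad2 and Slc32a1, the ratio was 1.15 (0.923 to 1.43) in WT and 1.43 (1.15 to 1.77) in Irx5KO. These comparison cells were picked for Slc17a6, which raises their level of it. The transporter was thus far above the mean of other neurons and within 1.5-fold of these excitatory neurons.

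Adcyap1, at chr17:93199017-93206537, had 47 UMIs in 27 WT cells and 43 UMIs in 14 Irx5KO cells. Its level of 284 and 320 CPM compared with 9.46 and 19.5 in other neurons, ratios of 30.1 (16.7 to 56.8) and 16.4 (10.9 to 24.7). One Irx5KO cell held 15 of the 43 UMIs there. Among other glutamatergic neurons the level was 33.0 and 50.4, and the ratios to them were 8.61 (4.03 to 21.1) and 6.34 (3.81 to 10.8). Adcyap1 had a UMI in 48.2% of WT and 40.0% of Irx5KO Foxb1-type neurons, and in 16 of 49 and 6 of 30 after each cell was thinned to 1000 UMIs, with 7 and 5 shallower cells left out. It had a UMI in 0 of 197 WT and 1 of 116 Irx5KO oligodendrocyte barcodes. Adcyap1 was among the markers named for this cell type from these data, so its level is no independent support for the name.

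**Figure D2:**
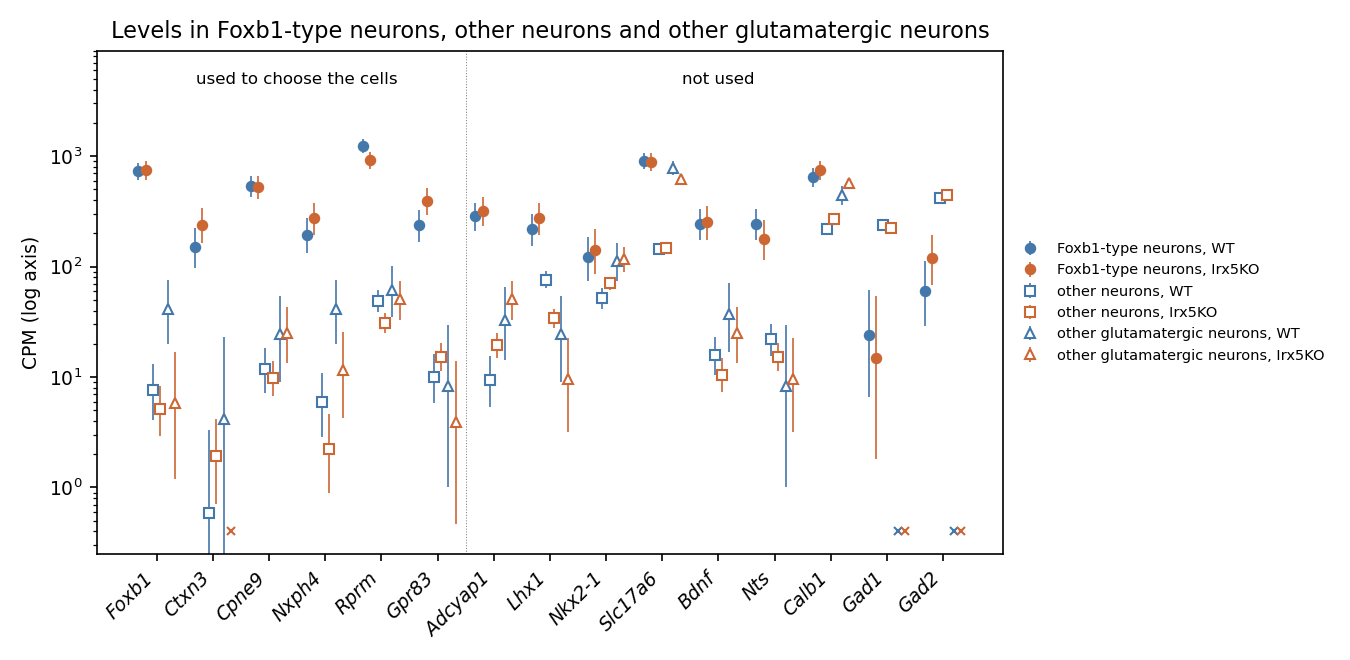
Level of 15 genes in UMIs per 1e6 UMIs (CPM, log axis) with exact 95% Poisson intervals, from summed counts of Foxb1-type neurons (filled circles), other neurons (squares) and other glutamatergic neurons (triangles), WT in blue and Irx5KO in orange, with crosses for 0 UMIs. The 6 genes left of the dotted line chose the cells, and right of it Adcyap1, Bdnf and Nts are higher in the Foxb1-type neurons than in both other groups while Gad1 and Gad2 are lower than in other neurons. The other glutamatergic neurons have 0 Gad1 and Gad2 UMIs by their definition.

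Of the mammillary transcription factors, Lhx1 had 36 UMIs in 21 WT cells and 37 UMIs in 18 Irx5KO cells, 218 and 275 CPM. The ratio to other neurons was 2.86 (1.92 to 4.16) in WT and 8.06 (5.39 to 11.8) in Irx5KO, where the other neurons themselves had 76.3 and 34.1 CPM. Lhx1 is also known from the suprachiasmatic nucleus, whose genes were detected in the other neurons as given below. Lhx1os, a long non-coding RNA listed beside Lhx1, stood at 272 and 372 CPM. The pair is transcribed from opposite strands and no source used here says whether counting kept the strand, so reads of the pair may not be told apart.

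Nkx2-1, which is broadly expressed in the ventral hypothalamus, had 20 UMIs in 14 WT cells and 19 UMIs in 12 Irx5KO cells, below the 50 UMIs set for a gene to count as measured. Its 121 and 141 CPM compared with 52.0 and 70.5 in other neurons. Lhx5 had 9 and 7 UMIs, Sim1 had 7 and 3, and Sim2 had 0 and 1. Barhl1, Lmx1a, Lmx1b and Foxa1, known from the neighbouring supramammillary and subthalamic territory, had 0 UMIs in both libraries, which at 3 counts allows 18.2 CPM in WT and 22.3 in Irx5KO. Of the 19 listed factors in the table, 1 outside the gate reached 50 UMIs, Lhx1. Of these factors outside the gate, Lhx1 alone was thus called higher, and the others had too few UMIs at this depth to bear on the mammillary name.

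Cells with a Foxb1 UMI carried these genes more often than cells without one, a split read from the same counts and given as a description. Slc17a6 had a UMI in 32 of 37 WT and 22 of 24 Irx5KO cells with Foxb1, against 10 of 19 and 5 of 11 cells without. Adcyap1 had a UMI in 25 of 37 and 14 of 24 cells with Foxb1, against 2 of 19 and 0 of 11 without. Lhx1 had a UMI in 19 of 37 and 16 of 24, against 2 of 19 and 2 of 11. These cells had medians of 1957 UMIs (with Foxb1) and 3081 UMIs (without) in WT, and 2947.5 and 2316 in Irx5KO, so in WT the cells without Foxb1 were the deeper ones.

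Some peptide and calcium-buffer genes followed the same split, and others did not. Nts, encoding neurotensin, had a UMI in 11 of 37 WT and 6 of 24 Irx5KO cells with Foxb1, against 1 of 19 and 0 of 11 without. Calb1, encoding the calcium buffer calbindin, had a UMI in 28 of 37 and 19 of 24, against 8 of 19 and 0 of 11. Cck, encoding cholecystokinin, had a UMI in 20 of 37 and 17 of 24, against 6 of 19 and 1 of 11. Calb2, encoding the calcium buffer calretinin, went the other way, with a UMI in 5 of 37 and 3 of 24 cells with Foxb1 against 7 of 19 and 3 of 11 without. Sst had a UMI in 5 of 37 and 4 of 24, against 3 of 19 and 2 of 11, and Npy in 6 of 37 and 4 of 24, against 3 of 19 and 2 of 11, nearly equal shares. At least 1 of the GABAergic genes Gad1, Gad2 and Slc32a1 had a UMI in 2 of 37 and 3 of 24 cells with Foxb1, and in 6 of 19 and 5 of 11 without. Of the 61 cells with Foxb1, 0 had a GABAergic gene and no Slc17a6, while 9 of the 30 cells without Foxb1 did. Foxb1 is a gate gene, and cells without it passed on the other gate genes, so this split lends the mammillary name no support. The cells were mixed in these readouts and are called by their rule.

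**Figure D3:**
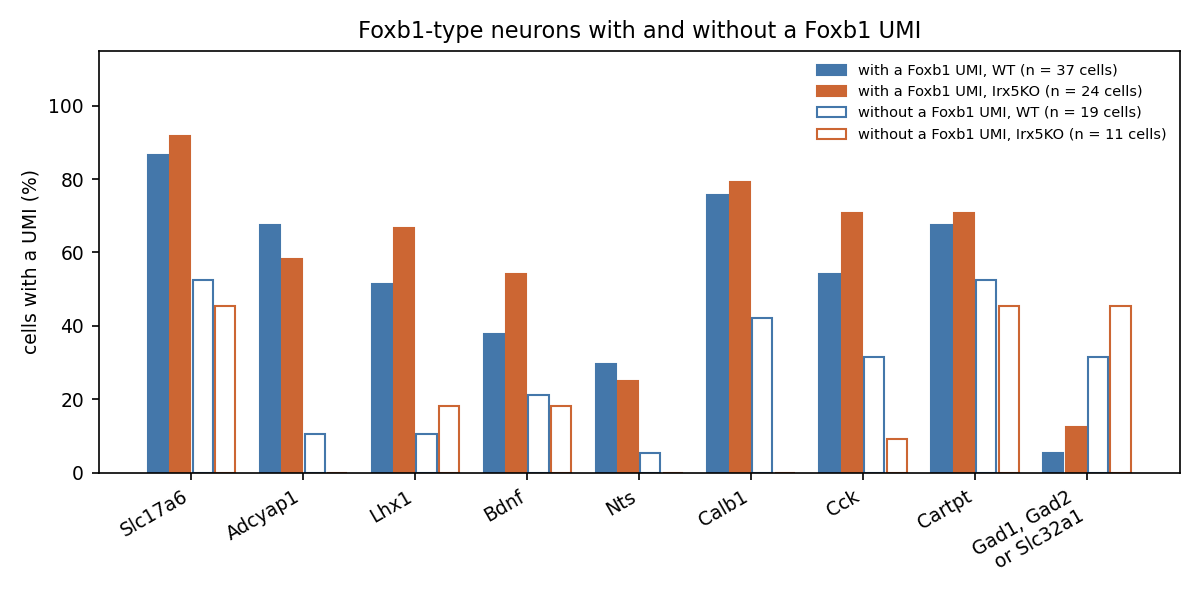
Percent of Foxb1-type neurons with a UMI of each gene, for cells with a Foxb1 UMI (filled bars, 37 WT in blue and 24 Irx5KO in orange) and without one (open bars, 19 WT and 11 Irx5KO). The filled bars are higher for every gene shown from Slc17a6 to Cartpt and lower for the GABAergic genes, and Adcyap1, Nts and Calb1 have no Irx5KO bar without Foxb1 because 0 of 11 cells had a UMI.

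Single cells set the levels of some peptide genes. In WT, 1 cell held 509 of the 553 Sst UMIs, 37 of the 68 Calb2 UMIs were in 1 cell, and 190 of the 416 Cartpt UMIs were in 1 cell. In Irx5KO, 1 cell held 164 of the 170 Npy UMIs and 36 of the 39 Agrp UMIs were in 1 cell. Sst encodes somatostatin, and Npy and Agrp encode the peptides of the arcuate hunger neurons. Of the Sst UMIs in WT, 548 lay in cells without a Foxb1 UMI, and of the Npy UMIs in Irx5KO, 165 did. Sums of Sst, Npy and Agrp therefore mostly describe 1 cell and not the group.

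Across all genes outside the gate, 1414 were measured, meaning that they had, or would have had at the level of other neurons, at least 50 UMIs in the Foxb1-type neurons. Of these, 45 were at least 2-fold higher in the Foxb1-type neurons in both libraries (3.18%), and 28 were at least 2-fold lower in both (1.98%). The median log2 ratio over all measured genes was -0.021 in WT and 0.0050 in Irx5KO. Under TMM scaling these medians moved to -0.19 and -0.16, and the counts were 38 higher and 40 lower. The genes named next are from the 20 highest by the nearer bound of their intervals, Slc17a6 and Lhx1os among them, with other listed genes.

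Bdnf, encoding brain-derived neurotrophic factor, led the named genes. It had 40 UMIs in 18 WT cells and 34 UMIs in 15 Irx5KO cells, 242 and 253 CPM, against 15.96 and 10.53 in other neurons. The ratios were 15.2 (9.08 to 25.7) and 24.0 (14.4 to 40.0), and against other glutamatergic neurons they were 6.51 and 10.03. The growth factor gene was thus above both comparison groups in both libraries, with a UMI in a minority of the cells.

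Dgkb, encoding a diacylglycerol kinase, stood at 690 and 751 CPM, 5.80-fold (4.57 to 7.34) and 5.47-fold (4.36 to 6.81) above other neurons, with a UMI in 37 and 23 cells. Arpp21, encoding a cAMP-regulated phosphoprotein, stood at 357 and 312, 12.1-fold (8.14 to 18.0) and 6.27-fold (4.35 to 8.87) above. Serpini1, encoding the protease inhibitor neuroserpin, stood at 399 and 424, 5.58-fold and 6.09-fold above. Dgkb and Arpp21 kept more than 4-fold ratios against other glutamatergic neurons, 4.91 and 4.78 for Dgkb and 6.17 and 4.24 for Arpp21.

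Pcp4, encoding a calmodulin regulator, had a UMI in 50 of 56 WT and 32 of 35 Irx5KO cells and was 2.72-fold (2.47 to 2.997) and 4.03-fold (3.63 to 4.47) above other neurons. Vsnl1 and Hpcal1, encoding calcium sensors of the visinin family, were 2.97-fold and 2.92-fold higher, and 3.05-fold and 2.45-fold higher. Atp2b4, encoding a plasma membrane calcium pump, was 3.97-fold and 2.99-fold higher. Calb1 was 2.95-fold (2.35 to 3.67) and 2.78-fold (2.24 to 3.43) higher, but against other glutamatergic neurons the ratios were 1.45 and 1.32. Hpcal1 in WT came to a log2 ratio of 0.97 when every cell had the same weight, just under 2-fold. Atp2b4, Hpcal1 and Pcp4 share stretches of 50 bases in their last 400 transcript bases with other annotated genes, so their counts are less certain.

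Nefl, a neurofilament subunit of long axons, was 3.42-fold (2.66 to 4.37) and 3.36-fold (2.66 to 4.20) higher. Sncb, encoding a protein of presynaptic terminals, was 2.93-fold and 2.81-fold higher. Rph3a, encoding the vesicle protein rabphilin, was 3.19-fold and 3.09-fold higher. Tenm2, Ntm and Thy1 encode cell-surface adhesion proteins and were 5.04-fold and 3.44-fold, 2.94-fold and 2.99-fold, and 2.56-fold and 3.08-fold higher in WT and Irx5KO. Thy1 in WT fell short of 2-fold against other glutamatergic neurons, with a log2 ratio of 0.75.

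The other named genes were RMST-1, Osbpl1a and Tmem145. RMST-1, a non-coding RNA name of the table that did not match a gene of the annotation used, was 5.92-fold and 4.52-fold higher. Tmem145, encoding a membrane protein, was 2.74-fold and 3.33-fold higher. Osbpl1a, encoding an oxysterol-binding protein, was 2.95-fold and 4.22-fold higher, but it had a UMI in 55.3% of WT and 41.4% of Irx5KO oligodendrocyte barcodes, more than the 37.5% of WT Foxb1-type neurons and close to the 42.9% of Irx5KO ones. The part of oligodendrocyte RNA in its level was not tested.

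**Figure D4:**
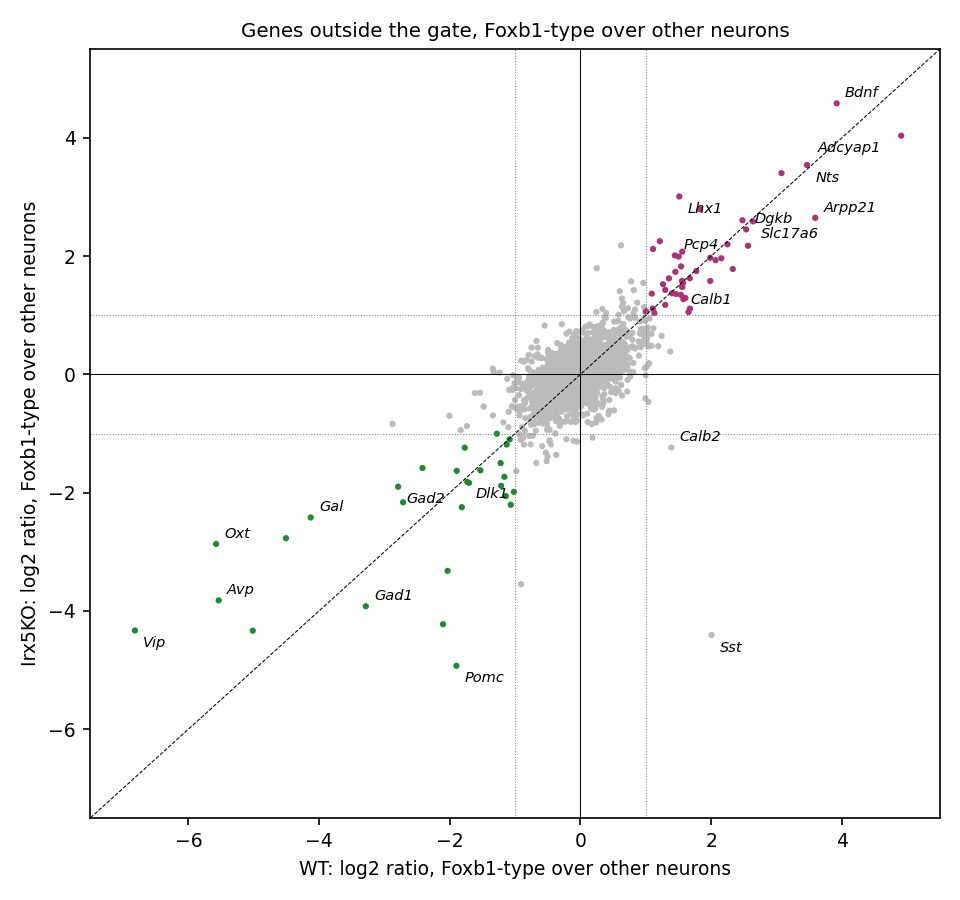
Log2 ratio of Foxb1-type to other neurons for 1414 measured genes outside the gate, WT on the horizontal and Irx5KO on the vertical axis. Genes at least 2-fold higher in both libraries (45, purple) or lower in both (28, green) lie beyond the dotted lines. Bdnf and Adcyap1 lie farthest to the upper right, Sst and Calb2 lie on opposite sides of 0 in the libraries, and Vip, with 0 Irx5KO UMIs, is drawn at its value for 3 counts.

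GABAergic identity genes were low. Gad1, a GABA-synthesising enzyme, had 4 UMIs in WT and 2 in Irx5KO, 24.2 and 14.9 CPM against 236 and 225 in other neurons, which is 9.75-fold (3.78 to 36.0) and 15.2-fold (4.18 to 125) lower. Gad2 was 6.92-fold (3.74 to 14.5) and 3.73-fold (2.29 to 6.55) lower. Of the GABAergic list, 2 of 10 genes in the table were measured and both were lower, against 1.98% of all 1414 measured genes.

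Of 15 measured genes of the neuropeptide list 6 were lower, and of 7 measured arcuate genes 3 were, against 1.98% of all 1414 measured genes. Avp, encoding vasopressin, was 46.4-fold (24.4 to 102) lower in WT and 14.1-fold (6.49 to 38.6) lower in Irx5KO. It had a UMI in 16.1% and 14.3% of Foxb1-type neurons, and in 4.08% and 3.33% after thinning, against 3.55% and 5.00% of oligodendrocyte barcodes, so its counts there were at the level of background RNA. Vip, encoding a suprachiasmatic peptide, had 1 UMI in WT and 0 in Irx5KO, where it was at least 20.1-fold lower taking 3 counts over the group. The WT ratio of Vip to other neurons was 0.00886 (0.000224 to 0.0495). Gal, encoding galanin, was 17.5-fold (5.95 to 85.1) and 5.35-fold (3.29 to 9.38) lower. Pomc, the precursor of the satiety peptide alpha-MSH, was 3.73-fold (1.87 to 8.71) and 30.5-fold (8.41 to 252) lower. Tac2, encoding neurokinin B, was 2.89-fold and 3.08-fold lower. Dlk1, an imprinted gene encoding a delta-like membrane protein, was 3.32-fold and 3.52-fold lower.

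Over all 1414 measured genes 3.18% were higher and 1.98% lower. A gene measured only by its level in other neurons could not be called higher, which limits the counts by list. Read by list, 15 of the 27 genes of the neuropeptide list in the table were measured. Of these 15, 3 were higher and 6 lower (Avp, Gal, Oxt, Pomc, Tac2 and Vip). The 3 higher were Adcyap1, Nts and Bdnf, a growth factor gene that the list also holds. The 15 genes had a median log2 ratio of -0.59 in WT and -1.62 in Irx5KO. Of 11 suprachiasmatic genes, 6 were measured, with Lhx1 and Zfhx3 higher and Avp, Vip, Six3 and Rgs16 lower. Zfhx3, a homeobox factor of clock neurons, was 2.76-fold and 2.57-fold higher, at 315 and 208 CPM. Of 20 arcuate genes in the table, 7 were measured, with 0 higher and 3 lower (Gal, Pomc and Tac2). Npy stood at 369 CPM in WT and 1264 in Irx5KO against 328 and 1248 in other neurons, and the summed arcuate level was 6589 and 3249 CPM against 4434 and 5912. These levels rested largely on single cells and do not describe the group. For Npy, 1 cell held 48 of the 61 WT UMIs and 1 cell 164 of the 170 Irx5KO UMIs. In WT, 1 cell held 509 of the 553 Sst UMIs and 1 cell 190 of the 416 Cartpt UMIs. The premammillary list had 6 of 18 measured, with Adcyap1 and Calb1 higher and Dlk1 lower. Of other genes on this list, Cck had a UMI in 46.4% of WT and 51.4% of Irx5KO Foxb1-type neurons, against 13.6% and 11.5% of other neurons. Calb2 had a UMI in 21.4% and 17.1%, against 20.2% and 23.5%. Nos1 is the neuronal nitric oxide synthase gene of the ventral premammillary nucleus. It had 16 UMIs in 13 WT cells and 5 UMIs in 3 Irx5KO cells. That was 23.2% (13.0 to 36.4%) and 8.57% (1.80 to 23.1%) of the cells, against 2.62% and 3.86% of other neurons.

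Nts had 40 UMIs in 12 WT cells and 24 UMIs in 6 Irx5KO cells, 242 and 178 CPM against 21.9 and 15.3 in other neurons. The ratios were 11.1 (6.90 to 17.8) and 11.6 (6.82 to 19.4). It was present in a minority of the cells, and every cell with it had 3 or more gate genes. Cartpt, encoding the CART peptide, had a UMI in 35 of 56 WT and 22 of 35 Irx5KO cells, against 25.5% and 29.3% of other neurons and 9.64% and 12.1% of oligodendrocyte barcodes. Its summed level was only 1.37-fold and 1.27-fold above other neurons, with more cells holding it than in other neurons. In WT, 1 cell held 190 of the 416 Cartpt UMIs. Without the highest cell of each library, chosen after seeing the data, Cartpt stood at 1479 CPM in WT against 1840 in other neurons. In Irx5KO it stood at 1158 against 1055, so the WT direction depended on 1 cell.

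Receptor, channel and release genes seldom passed 2-fold. Of 39 glutamate and GABA receptor subunit genes 8 were measured, with 0 higher and 0 lower and a median log2 ratio of 0.35 in WT and 0.31 in Irx5KO. Gria2, the subunit that sets the calcium permeability of AMPA receptors, was 1.498-fold (1.26 to 1.77) and 1.62-fold (1.35 to 1.93) above other neurons. Of 65 voltage-gated channel genes, 4 were measured and 1 was higher, Cacna2d1, a calcium channel subunit, at 3.19-fold and 2.16-fold. Of 30 synaptic vesicle and release genes 13 were measured and 2 were higher, Slc17a6 and Napb, the latter an NSF attachment protein gene at 2.01-fold and 2.09-fold.

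Below 50 UMIs, some receptor genes stood far apart in level. Grm2, a presynaptic metabotropic glutamate receptor gene, had 18 UMIs in 15 WT cells and 6 UMIs in 4 Irx5KO cells, 109 and 44.6 CPM against 2.37 and 4.15 in other neurons. Gabra4, a GABA-A receptor subunit gene, stood at 84.7 and 134 against 15.96 and 26.5, and Gabbr2, a GABA-B receptor subunit gene, at 121 and 111.5 against 23.6 and 34.8. These 3 were chosen after their values were seen. Of 54 peptide and hormone receptor genes only Thra, a thyroid hormone receptor gene, was measured, at 1.05-fold and 0.876-fold.

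Activity and stress genes gave 1 call in the Foxb1-type neurons. Of 20 immediate early genes 6 were measured, with 0 higher and 1 lower, Fosb, at 2.33-fold and 2.83-fold lower. Fos stood at 520 and 394 CPM against 772 and 702 in other neurons. Of 15 heat shock genes 10 were measured and of 13 mitochondrially encoded genes 8 were, with 0 of either list called in either direction. Over all 1414 measured genes 3.18% were called higher and 1.98% lower, so counts in lists this small are a description. The mitochondrial share had a median of 1.37% in WT and 1.32% in Irx5KO Foxb1-type neurons, and of 1.54% and 1.26% in other neurons.

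The Foxb1-type neurons made up 8.90% of WT neurons (56 of 629, exact Clopper-Pearson interval 6.80 to 11.4%) and 3.82% of Irx5KO neurons (35 of 916, 2.68 to 5.27%). The share was thus 2.33-fold lower in the Irx5KO library, with an exact interval of 1.501 to 3.66 for counting error. Of all barcodes with 500 or more genes they made up 3.06% and 1.77%, a 1.73-fold difference (1.11 to 2.71). The Irx5KO Foxb1-type neurons had the higher median depth of the 2 libraries, as did the other Irx5KO neurons. When the rule was applied to barcodes thinned to 1000 UMIs, 35 of 460 WT neurons (7.61%) and 22 of 681 Irx5KO neurons (3.23%) passed. Among cells with a Foxb1 UMI, the shares were 5.88% and 2.62%.

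Other regional markers differed between the same libraries. In the other neurons, the summed level of the 20 arcuate genes in the table was 4434 CPM in WT and 5912 in Irx5KO, with 224 of 573 and 488 of 881 cells having 2 or more of them and 1 and 0 of the genes at 0. The summed level of the 11 suprachiasmatic genes was 4310 and 1774, with 225 of 573 and 267 of 881 cells having 2 or more and 0 of the genes at 0. The part of these differences in the share of Foxb1-type neurons was not tested. With 1 dissected pool per genotype, how far the tissue block reached back toward the mammillary region and the genotype of the mice cannot be told apart.

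Within the Foxb1-type neurons, the leading genes outside the gate differed between the genotypes by less than counting error. The Irx5KO over WT ratio was 1.12 (0.726 to 1.74) for Adcyap1, 0.975 (0.760 to 1.25) for Slc17a6, 1.26 (0.776 to 2.06) for Lhx1, 1.04 (0.641 to 1.69) for Bdnf and 1.17 (0.883 to 1.55) for Calb1. These intervals include 1, which does not show that the levels were alike. Between genotypes 1233 genes had at least 50 UMIs in these neurons, and 116 were at least 1.5-fold higher in Irx5KO (9.41%) and 119 at least 1.5-fold lower (9.65%), with a median log2 ratio of 0.012. The counting interval left out 1 for 84 of the 116 and 90 of the 119.

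Most of these genes leaned the same way in the other neurons of the same 2 libraries. Of the 116, 91 were above 1 there and 20 were also 1.5-fold higher. Of the 119, 101 were below 1 and 32 also 1.5-fold lower. Over all genes measured between genotypes, the median log2 ratio in other neurons was -0.0044, so these leaned little to either side. Their shares above 1, below 1 and 1.5-fold apart in other neurons are not given here. The counts are therefore a description, and agreement beyond that background was not tested. The 12 named genes in each direction were those whose interval lay farthest from 1. Of them, 9 of those higher and 7 of those lower in Irx5KO share 50-base stretches near their 3' ends with other annotated genes, and 6 and 2 are annotated as processed pseudogenes. These are Gm5944, Gm11942, Gm3272, Gm12328, Gm5160 and Gm5863 among those higher, and Gm10263 and Gm7308 among those lower. Their counts depend on how reads from near-identical copies were assigned.

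Of the genes without such copies, Zmynd11, encoding a chromatin reader, had a ratio of 2.80 (1.57 to 5.18) against 1.27 in other neurons. Sparcl1, encoding a secreted matrix protein also made by astrocytes, had 37 UMIs in WT and 65 in Irx5KO and a ratio of 2.16 (1.42 to 3.33), with 2.35 in other neurons. It came to a log2 ratio of 0.030 after each cell was thinned to 1000 UMIs. Cwc22, a splicing factor gene with copies in the genome, and Calr, encoding the chaperone calreticulin, had ratios of 3.0002 and 1.95.

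Among genes lower in Irx5KO, Sez6, encoding a seizure-related membrane protein of dendrites, had 91 UMIs in 30 WT cells and 11 UMIs in 8 Irx5KO cells, 551 and 81.8 CPM. It was 6.73-fold (3.59 to 13.96) lower, and 5.69-fold (4.92 to 6.60) lower in other neurons. Gap43, encoding a growth-cone protein that persists in plastic terminals, had 246 and 103 UMIs and was 1.94-fold (1.54 to 2.47) lower, against 1.23-fold (1.17 to 1.29) in other neurons. When each cell had the same weight the log2 ratio of Gap43 was -0.37, under 1.5-fold, and 37 of its WT UMIs were in 1 cell. Cfap36, encoding a cilia and flagella associated protein, was 2.38-fold (1.53 to 3.802) lower, against 1.11-fold in other neurons. Cbx1, encoding a heterochromatin protein, was 2.88-fold lower and Eif5b, a translation initiation factor gene, 2.40-fold lower, against 1.36-fold and 1.37-fold in other neurons. Mrpl21, encoding a mitochondrial ribosomal protein, was 2.98-fold (1.55 to 6.21) lower, against 1.05-fold, and Ndufb4, encoding a respiratory complex I subunit, was 3.12-fold lower, against 1.53-fold. Mrpl21, Ndufb4, Cwc22, Calr, Scn2a and Dnaja1 are among the genes that share 3' stretches with others, so their values are uncertain. Whether the ratios in the Foxb1-type neurons differ from those in other neurons was not tested.

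**Figure D5:**
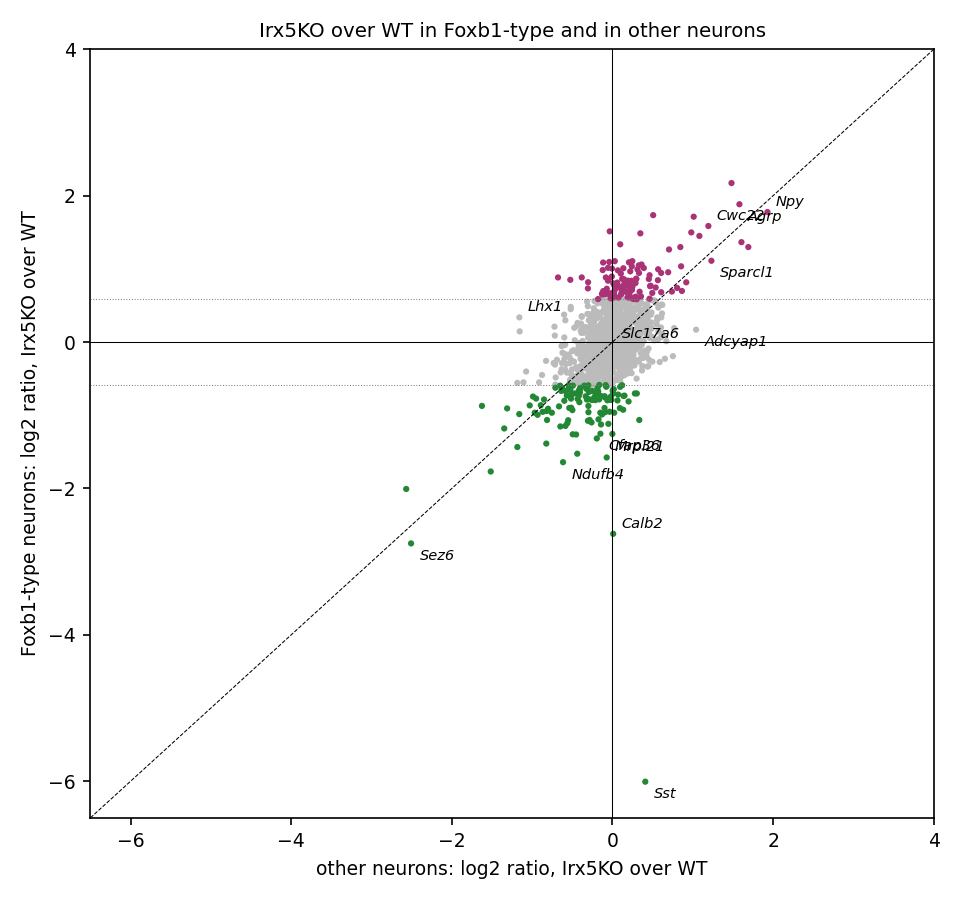
Log2 ratio of Irx5KO to WT for the 1233 genes with at least 50 UMIs in Foxb1-type neurons, in other neurons (horizontal axis) and in Foxb1-type neurons (vertical axis). Dotted lines mark 1.5-fold in the Foxb1-type neurons, with 116 genes above (purple) and 119 below (green). Sez6 lies near the dashed diagonal of equal ratios, and Sst and Calb2 lie far below it, with 509 of 553 and 37 of 68 WT UMIs in 1 cell.

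By list, 2 of 4 measured arcuate genes were higher in Irx5KO, Agrp and Npy, and 2 were lower, Cartpt and Sst, and 1 cell held 92.3% of the Irx5KO Agrp UMIs and 96.5% of those of Npy. Without the highest cell of each library, chosen after seeing the data, the Irx5KO over WT ratio moved from 3.43 to 0.597 for Npy, from 0.0156 to 0.136 for Sst and from 0.532 to 0.783 for Cartpt. Without the highest WT cell alone the ratio of Cartpt was 0.905, so its call was lost. Of 11 measured synaptic vesicle genes 0 were called, of 6 receptor subunit genes 1 was higher, and of 4 channel genes 2 were lower. Over all 1233 genes 9.41% were higher and 9.65% lower. Counts in lists this small, also those of arcuate and heat shock genes, are therefore given as a description. Scn2a, encoding an axonal sodium channel, was 1.63-fold (1.02 to 2.64) lower, and Cacna2d2, encoding a calcium channel subunit, 2.09-fold (1.10 to 4.20) lower. Their Irx5KO over WT ratios in other neurons were 1.01 and 0.821. Heat shock genes split, with Hsph1 higher at 1.78 and Dnaja1 1.53-fold lower.

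Transcripts of other cell types were few but differed between the libraries. Oligodendrocyte markers summed to 411 CPM in WT and 216 in Irx5KO Foxb1-type neurons, with 13 of 56 and 7 of 35 cells having 2 or more of the 10 markers and 1 and 5 of them at 0, against 1291 and 2901 in other neurons. Astrocyte markers summed to 405 and 201, with 2 and 4 of 9 at 0, and Aldoc, encoding an astrocyte-rich aldolase, was 2.39-fold (1.30 to 4.62) lower in Irx5KO, with 18 of its 44 WT UMIs in 1 cell. Haemoglobin genes summed to 254 and 7.44, with 1 and 2 of 3 in the table at 0, and Hbb-bs had 24 UMIs in 18 WT cells and 0 UMIs in Irx5KO. In other neurons the haemoglobin sums were 119 and 26.2. The part of this RNA in the genotype differences was not tested, and Scrublet called 10 of 1829 WT and 23 of 1972 Irx5KO barcodes doublets, 0 of them among the Foxb1-type neurons.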

How the data were processed

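Drop-seq libraries of 1 pool of WT and 1 pool of Irx5KO mice were used. Tools listed, without their roles, per the submitters' processing notes were Seurat 3, STAR 2.6.0b, Picard and bcl2fastq, with mm10 as the build; annotation and use of strand are not stated there. The authors deposited the WT table as UMI counts per gene and barcode. The merged and the Irx5KO tables were deposited by the authors in natural log units, as their values show: each barcode's UMIs had been scaled to a total of 10000 and 1 had been added. The analysis had been planned for counts, so counts were recovered from the log values, every one within 1e-06 of a whole number, and 0 of 4275938 compared WT UMIs differed from the WT count table.

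Counts were summed over cells within each library, since 1 library per genotype allows no test. Intervals at 95% are Clopper-Pearson for shares, exact Poisson for levels and exact conditional binomial for ratios, and cover counting error only. Genes of the gate were left out of the calls. A gene was called when at least 2-fold apart from other neurons in both libraries, or at least 1.5-fold apart between genotypes. The named genes were up to 20 higher and 12 lower than in other neurons and up to 12 per direction between genotypes, with at least 50 UMIs, at most 20% of UMIs in 1 cell and the interval bound farthest from 1, plus the gate genes, the markers and up to 4 genes per list. No gene lower than in other neurons met all of these conditions, so those come from the lists. The members and lists were chosen with earlier results of these data known. A gene at 0 UMIs was compared at 3 counts. Doublets were called with Scrublet in scanpy 1.11.5 at an expected rate of 5%, and none was removed. Near-identical genes were sought as shared 50-base stretches in the last 400 transcript bases of the GENCODE M21 annotation of GRCm38, the mm10 assembly. The interval calculation was tested on simulated data. Python 3.11.15, numpy 2.4.6, scipy 1.17.1, pandas 2.3.3 and matplotlib 3.10.9 were used. Alternatives changed the gate, the gene minimum, depth, scaling, weights, the count minimum and the comparison cells. Some genes that met these rules are not reported here.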

Additional observations from a re-analysis of the deposited data

Results flagged for a closer look

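Calb2, encoding the calcium buffer calretinin, and Sst lay on opposite sides of the other neurons in the 2 libraries. The log2 ratio of Foxb1-type to other neurons was 1.39 in WT and -1.24 in Irx5KO for Calb2, from 68 and 9 UMIs, with 37 of the WT UMIs in 1 cell. It was 2.01 in WT and -4.41 in Irx5KO for Sst, from 553 and 7 UMIs, with 509 of the WT UMIs in 1 cell. These differences between the libraries were not tested.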

How the results depend on the processing

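No paired analysis was possible because each genotype is 1 library. For the same reason no replicate could be left out. The Irx5KO over WT ratio of the share of neurons lay between 0.371 and 0.470 over the alternatives that changed the cells, among them the rule applied to thinned barcodes, which was chosen after seeing the data. The share kept its direction in each of these alternatives. The ratios of named genes kept theirs in each alternative in which they were computed, which leaves out the rule applied to thinned barcodes. The median log2 ratio of Irx5KO to WT, 0.012, changed sign in 8 of the alternatives, for example to -0.076 with at least 3 gate genes, -0.052 without Rprm and Gpr83, -0.017 with a Foxb1 UMI and -0.011 under TMM scaling, and the WT median against other neurons, -0.021, was 0.019 with at least 3 gate genes. Under TMM, 38 genes were higher and 40 lower than in other neurons, against 45 and 28. Npy reversed between genotypes, from a ratio of 3.43 to 0.597, when the highest cell of each library was left out. Of 62 ratios of named genes, 57 kept their fold in every alternative run, the exceptions reported here being Sparcl1, Gap43, and in WT Hpcal1 and Thy1. Slc17a6 and Adcyap1 are not among the 62 and are given at the end of this paragraph. Slc17a6 did not keep its 2-fold ratio against other glutamatergic neurons, which were picked for it. Genes higher in Irx5KO numbered 116, against 59 with at least 3 gate genes, 59 without Rprm and Gpr83 in the gate, 64 in cells with a Foxb1 UMI, 16 after thinning to 1000 UMIs, 184 with equal weight for each cell and 571 at a minimum of 20 UMIs. Applying the rule to thinned barcodes gave 57. Genes lower in Irx5KO numbered 119, against 76 in cells with a Foxb1 UMI, 27 after thinning and 554 at 20 UMIs, and 69 with the rule on thinned barcodes. Of the Irx5KO calls, 49.4% were higher, against 39.1% with at least 3 gate genes and 37.2% after thinning, where 156 genes were measured. Genes higher than in other neurons numbered 45, against 9 after thinning, where 197 genes were measured, and 133 at 20 UMIs. Genes lower numbered 28, against 8, 82, and 16 when set against other glutamatergic neurons. The log2 ratio of Slc17a6 was 2.64 in WT and 2.59 in Irx5KO. In cells with a Foxb1 UMI it was 2.95 and 2.95, with at least 3 gate genes it was 2.98 in Irx5KO, and against other glutamatergic neurons it was 0.20 and 0.51. The log2 ratio of Adcyap1 was 4.91 and 4.04, against 3.42 in Irx5KO after thinning, and 3.11 and 2.66 against other glutamatergic neurons. Genes under 50 UMIs, such as Nkx2-1, are limited by depth.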
